A study of Mus musculus with 12 samples.

Results

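Chemokines are small secreted proteins that guide migrating cells, and chemokine receptors are the G protein-coupled receptors that read them. The members described here are the genes whose symbol is Ccl, Cxcl, Ccr or Cxcr followed by a number and at most 1 letter, together with Cx3cl1, Cx3cr1, Xcl1 and Xcr1. The rule took 54 of the 27785 genes in the table, 36 ligands and 18 receptors. No measured value was used to choose them.

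RNA was sequenced from 12 libraries of mouse rectum in 4 groups. Mice of the Lgr5-Cdx2-Apc group (n = 2) carried floxed Apc and both the Lgr5 and the Cdx2 creER drivers, Lgr5-Apc mice (n = 4) carried floxed Apc with the Lgr5 driver, and Cdx2-Apc mice (n = 3) carried it with the Cdx2 driver. The control group (n = 3) is titled WT, while its genotype field names CDX2creER;APC flox with WT in brackets, so whether these mice carried Cre or floxed Apc is not clear from the labels. CreER is a Cre recombinase that acts after tamoxifen, Apc is the tumour suppressor that restrains Wnt signalling, Lgr5 marks intestinal stem cells and Cdx2 is a transcription factor of the hindgut epithelium. The protocol text describes 5 daily doses of tamoxifen at 25 mg/kg for all samples, while the tamoxifen field itself is missing for control. If control mice were not dosed, genotype and treatment cannot be told apart in comparisons with them. Age and sex were not used here, and the labels do not say whether libraries came from separate animals, and a p-value therefore speaks only of the spread among the libraries at hand.

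In the gut and the skin, epithelial cells make different chemokines: the gut epithelium makes Ccl28, which draws antibody-secreting and other Ccr10-bearing cells to mucosal surfaces, and keratinocytes make Ccl27, which draws Ccr10-bearing T cells to the epidermis. Inflammatory chemokines such as Ccl2, Cxcl2 and Cxcl10 are induced by cytokines and bring in monocytes, neutrophils and T cells. Homeostatic ones such as Ccl21 and Cxcl12 place cells within lymphoid and stromal tissue.

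Values are FPKM (fragments per kilobase of transcript, scaled to the size of the library) as the authors deposited them, and differences are on the log2(FPKM + 1) scale, which understates the change of genes with low values. Total FPKM per library ran between 451297 and 728462. Depth in reads is not known, so no counting interval is given. Apc itself stood at 13.5 to 15.0 FPKM in Lgr5-Cdx2-Apc, 14.1 to 18.6 in Lgr5-Apc, 15.3 to 17.6 in Cdx2-Apc and 15.9 to 18.8 in control. A value over the whole gene does not check the loss of floxed exons. The markers of the labelled tissue were not alike in all libraries. The summed level of 12 columnar epithelium markers was 362 to 2245 FPKM in Lgr5-Cdx2-Apc, 1411 to 20349.7 in Lgr5-Apc, 6774 to 7876 in Cdx2-Apc and 4715 to 9399 in control. That of 20 keratinocyte markers was 15091 to 26919 FPKM in Lgr5-Cdx2-Apc, 34.8 to 23562 in Lgr5-Apc, 19.6 to 757 in Cdx2-Apc and 62.8 to 3839 in control, and in Lgr5-Apc the high values came from replicates 2 and 3. No marker of either list was at 0 in all libraries of a group. All 10 smooth muscle markers tested fell in Lgr5-Cdx2-Apc against control, where 8.55% of all genes did. Of 9 skeletal muscle markers 8 rose, where 10.5% of all genes did. In whole tissue, fewer cells of a type and less RNA per cell cannot be told apart.

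**Figure D1:**
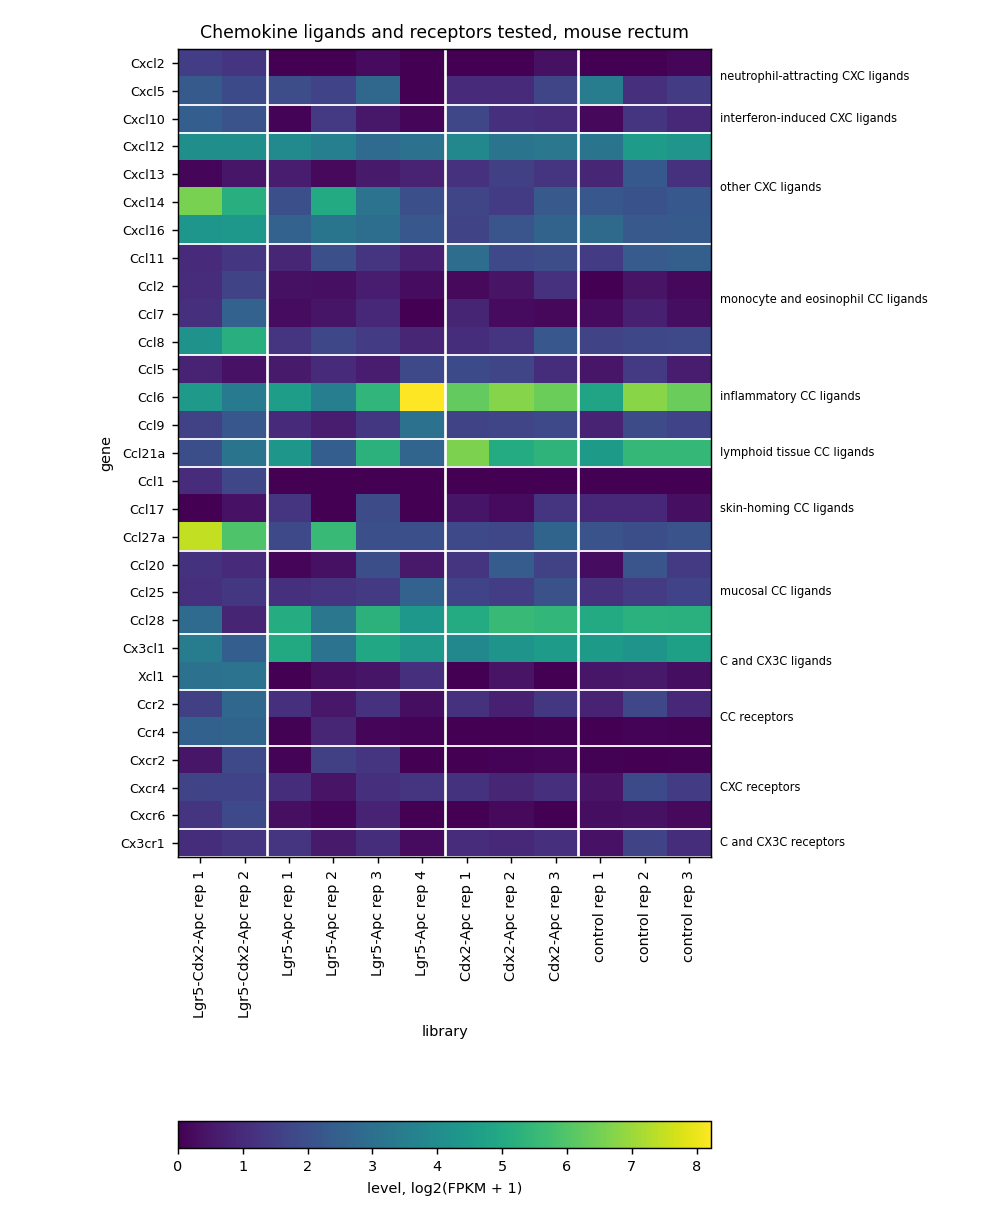
Levels of the 29 members that were tested, as log2(FPKM + 1), in each of the 12 libraries. Columns are libraries by group, rows are members by role, and colour gives the level. Ccl27a and Cxcl14 are bright in both Lgr5-Cdx2-Apc libraries and in Lgr5-Apc replicate 2, where Ccl28 is dimmer than in the other libraries.

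Of the 54 members, 29 reached 1 FPKM in at least 2 libraries and were tested with limma over all 17360 genes that did so. In Lgr5-Cdx2-Apc against control, 12 members rose and 1 fell at an adjusted p below 0.05. Among all genes tested, 10.5% rose and 8.55% fell. The members' median difference was 0.46, beside 0.07 for all genes tested. These counts and this median are not support for a change of the family. Of the 29, 5 (Ccl1, Ccl7, Cxcl2, Ccr4 and Cxcr6) passed the minimum only through the Lgr5-Cdx2-Apc libraries and so had to be higher there. Xcl1 and Ccl2 would not have passed it without that group either. Outside it, only Lgr5-Apc replicate 4 (Xcl1, 1.17 FPKM) and Cdx2-Apc replicate 3 (Ccl2, 1.27 FPKM) reached 1 FPKM. Among the 18 members at 1 FPKM or more in at least 6 libraries, 6 were called, 5 of them higher, where 16.1% of all such genes were called in either direction. Leaving out Lgr5-Cdx2-Apc replicate 1 left 4 calls, and leaving out replicate 2 left 1, with 24 members tested each time.

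By range, both Lgr5-Cdx2-Apc libraries lay above all 10 other libraries in 11 tested members, as they did in 13.7% of all tested genes. The 11 include the 5 members that the minimum had already placed there, so nothing is read from this count. It also held for Cxcl9, Cxcl3, Cxcl17 and Ccl22, which were not tested. In 1 member, Ccl28, both libraries lay below the other 10, as in 10.5% of all tested genes.

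Summed over the members, the ligands came to 397 and 233 FPKM in the 2 Lgr5-Cdx2-Apc libraries, 143, 145, 195 and 382 in Lgr5-Apc, 263, 238 and 235 in Cdx2-Apc and 144, 264 and 235 in control. The ligand total thus overlapped between the groups. The receptors came to 14.7 and 25.8 FPKM in Lgr5-Cdx2-Apc, 5.62, 6.14, 8.35 and 2.73 in Lgr5-Apc, 6.78, 6.14 and 6.38 in Cdx2-Apc and 3.22, 12.2 and 6.48 in control. Both Lgr5-Cdx2-Apc libraries were above the rest, as they were in 13.7% of all tested genes. The receptor total includes Ccr4, with 4.82 and 5.33 FPKM in these 2 libraries and at most 0.864 in any other. Nothing is therefore read from it about the receptors as a set. What made up the ligand total differed: the highest member was Ccl27a in both Lgr5-Cdx2-Apc libraries and in Lgr5-Apc replicate 2, and Ccl6, Ccl28 or Ccl21a in the other 9.

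**Figure D2:**
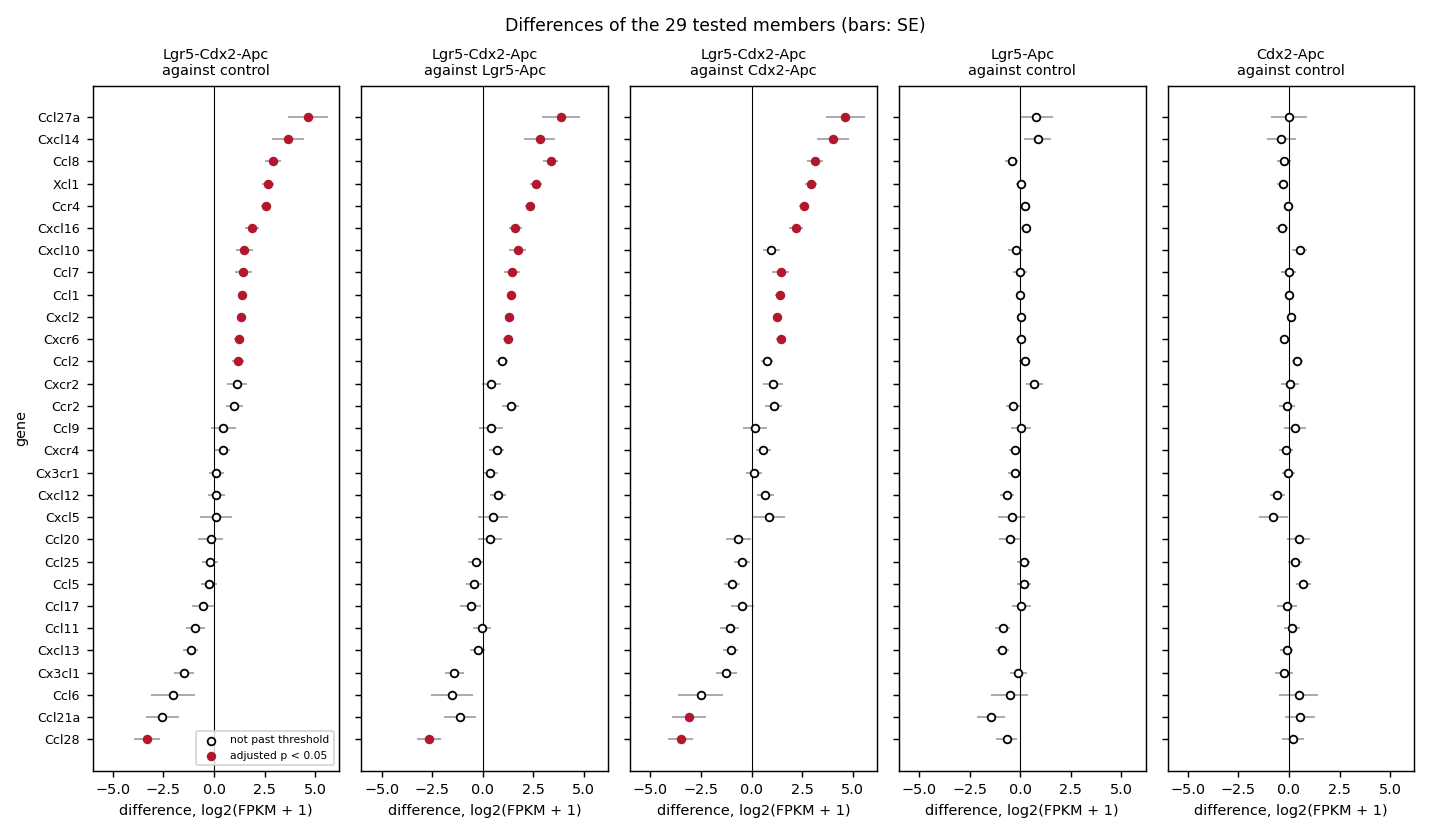
Differences of the 29 tested members on the log2(FPKM + 1) scale (x axis) in 5 comparisons. Points are fitted differences, bars their SE, and filled points have an adjusted p below 0.05. The 3 panels with Lgr5-Cdx2-Apc share those 2 libraries and hold 13, 12 and 12 filled points, and the panels of Lgr5-Apc and Cdx2-Apc against control hold none.

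The pair of ligands read by Ccr10 changed in opposite directions. Ccl27a (ENSMUSG00000073888.13, chr4:41769467-41774247, minus strand), the keratinocyte ligand, had 178 and 60.6 FPKM in Lgr5-Cdx2-Apc, 2.52, 47.1, 2.99 and 3.05 in Lgr5-Apc, 2.56, 2.40 and 5.25 in Cdx2-Apc and 3.34, 2.95 and 3.33 in control. Both Lgr5-Cdx2-Apc libraries and Lgr5-Apc replicate 2 were high and the other 9 low. Ccl27a rose by 4.64 ± 0.98 (SE) in Lgr5-Cdx2-Apc against control (adjusted p = 0.0142). The call was lost without Lgr5-Cdx2-Apc replicate 1 (3.87, adjusted p = 0.0941) and without replicate 2 (5.41, adjusted p = 0.0851). Ccl27a has near-identical copies in the genome. One of them, Ccl27b, had its own line, with 0.459 FPKM in Lgr5-Cdx2-Apc replicate 2 and 0 in the other 11 libraries, and how the authors' counting shared reads between copies is not given in the sources used here. The gene also overlaps the end of Il11ra1 on the other strand by 8 bases, and Il11ra1 rose by 0.78 (adjusted p = 0.0436).

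Ccl28 (ENSMUSG00000074715.3, chr13:119623819-119654359, plus strand), the mucosal ligand, had 6.26 and 0.802 FPKM in Lgr5-Cdx2-Apc, 33.3, 8.58, 37.8 and 19.8 in Lgr5-Apc, 32.6, 46.1 and 42.7 in Cdx2-Apc and 31.8, 37.3 and 35.9 in control. The Lgr5-Cdx2-Apc libraries were the lowest, followed by Lgr5-Apc replicate 2. Ccl28 fell by 3.31 ± 0.62 (SE) against control (adjusted p = 0.0097), a call that was lost without Lgr5-Cdx2-Apc replicate 2 (-2.31, adjusted p = 0.127). The ratio of Ccl27a to Ccl28, both per transcript length, was 28.4 and 75.5 in Lgr5-Cdx2-Apc, 0.0757, 5.49, 0.079 and 0.154 in Lgr5-Apc, 0.0783, 0.0521 and 0.123 in Cdx2-Apc and 0.105, 0.0791 and 0.0926 in control. Ccl27a exceeded Ccl28 in 3 libraries: both Lgr5-Cdx2-Apc libraries and Lgr5-Apc replicate 2. Their receptor Ccr10 was under the minimum for testing, with 0 and 0.127 FPKM in Lgr5-Cdx2-Apc and at most 0.646 in any library. Ccr3, which also reads Ccl28, did not exceed 0.0395 FPKM.

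Ccl27a was high and Ccl28 low in both Lgr5-Cdx2-Apc libraries and Lgr5-Apc replicate 2. These libraries had the highest keratinocyte and the lowest columnar epithelium scores. In the other libraries Ccl27a was at most 5.25 FPKM, at keratinocyte scores from 0.51 to 7.59. The keratinocyte score (mean log2(FPKM + 1) of the 20 markers) was 7.90 and 8.86 in Lgr5-Cdx2-Apc, 3.79, 8.72, 7.59 and 0.51 in Lgr5-Apc, 0.69, 0.91 and 3.83 in Cdx2-Apc and 5.68, 1.64 and 1.46 in control. Lgr5-Apc replicate 3 had a keratinocyte score near that of Lgr5-Cdx2-Apc replicate 1, and its Ccl27a was at 2.99 FPKM. Of the 20 keratinocyte markers tested, 4 rose against control, where 10.5% of all genes did. Among them were Krt2, a keratin of the upper epidermis, by 9.94 and Lor, a protein of the cornified envelope, by 8.16. Krt2 stood at 641 and 2193 FPKM in Lgr5-Cdx2-Apc, 62.7 in Lgr5-Apc replicate 2 and 0.87 in replicate 3, and at most 0.767 elsewhere. Outside Lgr5-Cdx2-Apc only Lgr5-Apc replicate 2 reached 1 FPKM, so Krt2 would not have been tested without that group. Nothing is therefore read from the count of keratinocyte markers. The columnar epithelium score was 6.75 and 4.06 in Lgr5-Cdx2-Apc, 8.35, 6.18, 8.27 and 9.09 in Lgr5-Apc, 8.51, 8.74 and 8.77 in Cdx2-Apc and 8.0, 8.33 and 8.87 in control. Of its 12 markers, 9 fell against control, where 8.55% of all genes did, led by Slc26a3, the colonic chloride exchanger, by 4.31. The part of these cell types in the Ccl27a and Ccl28 values was not tested.

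**Figure D3:**
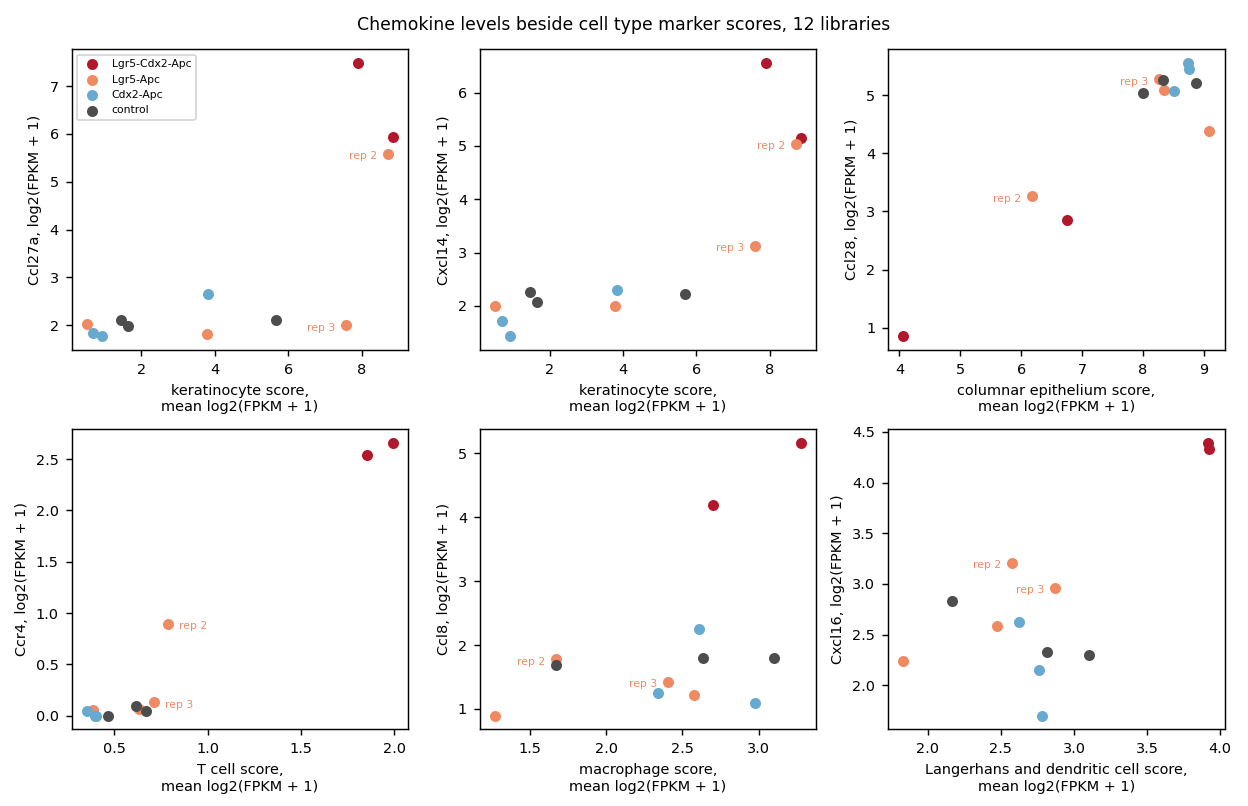
Levels of 6 members (y axis, log2(FPKM + 1)) beside marker scores (x axis, mean log2(FPKM + 1) of the listed markers). Each point is 1 of the 12 libraries, coloured by group, and rep 2 and rep 3 name Lgr5-Apc replicates. Lgr5-Apc replicate 2 lies beside the Lgr5-Cdx2-Apc libraries for Ccl27a and Cxcl14 and with the low libraries for Ccl8.

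The other skin-homing ligands are Ccl1, Ccl17 and Ccl22. Ccl1 (ENSMUSG00000020702.13, chr11:82176657-82305690, minus strand), a ligand of Ccr8 made mainly by activated T cells, had 1.06 and 2.34 FPKM in Lgr5-Cdx2-Apc and was listed at 0 in all 10 other libraries. It passed the test in Lgr5-Cdx2-Apc against control (adjusted p = 0.0033), but it passed the minimum only through these 2 libraries, and no fold is given against a group at 0. Ccl22, a ligand of Ccr4 made by dendritic cells and macrophages, had 0.906 and 4.68 FPKM in Lgr5-Cdx2-Apc, 0.243, 0.488, 0.866 and 0 in Lgr5-Apc, 0.174, 0.207 and 0.231 in Cdx2-Apc and 0.401, 0.400 and 0.186 in control. It reached 1 FPKM in a single library and was not tested. Ccl17, the other ligand of Ccr4, had 0 and 0.313 FPKM in Lgr5-Cdx2-Apc and 0.27 to 0.92 in control, and was not called in any of the 7 comparisons.

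Cxcl14 (ENSMUSG00000021508.11, chr13:56288643-56296551, minus strand) is a CXC ligand made constitutively by epithelia, skin among them. It had 93.0 and 34.6 FPKM in Lgr5-Cdx2-Apc, 3.02, 31.9, 7.77 and 3.00 in Lgr5-Apc, 2.29, 1.70 and 3.92 in Cdx2-Apc and 3.66, 3.23 and 3.78 in control. The same 3 libraries were high as for Ccl27a, with Lgr5-Apc replicate 3 next. Cxcl14 rose by 3.67 ± 0.79 (SE) against control (adjusted p = 0.0153). The call was lost without Lgr5-Cdx2-Apc replicate 1 (2.97, adjusted p = 0.101) and without replicate 2 (4.37, adjusted p = 0.0835).

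Cxcl16 (ENSMUSG00000018920.11, chr11:70453983-70459984, minus strand) is a membrane-bound ligand whose receptor is Cxcr6. Its level was 19.1 and 20.04 FPKM in Lgr5-Cdx2-Apc, 5.01, 8.24, 6.79 and 3.73 in Lgr5-Apc, 2.25, 3.45 and 5.15 in Cdx2-Apc and 6.13, 3.92 and 4.01 in control. The Lgr5-Cdx2-Apc libraries were close to each other and above the other 10. Cxcl16 rose by 1.88 ± 0.33 (SE) against control (adjusted p = 0.0076), and the call was lost without Lgr5-Cdx2-Apc replicate 2 (1.84, adjusted p = 0.0977). Its receptor Cxcr6 (ENSMUSG00000048521.8, chr9:123806475-123811760, plus strand), carried by resident and natural killer-like T cells, had 1.41 and 2.49 FPKM in Lgr5-Cdx2-Apc, 0.26, 0.102, 0.711 and 0 in Lgr5-Apc, 0, 0.156 and 0 in Cdx2-Apc and 0.234, 0.305 and 0.145 in control. Ligand and receptor were thus highest in the same libraries. Cxcr6 reached the minimum for testing only through these libraries, and 13.7% of all tested genes were highest in both, so nothing is read from this match. Cxcr6 rose by 1.24 ± 0.26 (SE), adjusted p = 0.0131. Cxcr6 lies wholly inside Fyco1 on the other strand, which stood at 16.3 and 17.5 FPKM in Lgr5-Cdx2-Apc and differed from control by 0.73 (adjusted p = 0.0714). Whether the counting used strand is not stated, so reads of the 2 genes may not be told apart. Cxcl16 overlaps 552 bases of Zmynd15, which did not exceed 0.964 FPKM.

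Other CXC ligands did not pass. Cxcl12, the stromal ligand of Cxcr4, had 16.2 and 16.0 FPKM in Lgr5-Cdx2-Apc, 6.36 to 14.3 in Lgr5-Apc, 7.96 to 13.2 in Cdx2-Apc and 7.95 to 21.8 in control (difference 0.10, adjusted p = 0.877). Its level lay within the range of the control group. Cxcl13, the ligand of Cxcr5 that draws B cells to follicles, had 0.0818 and 0.400 FPKM in Lgr5-Cdx2-Apc and 0.853, 3.84 and 1.24 in control (-1.14, adjusted p = 0.0537). Cxcl17 was not tested.

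Ccl8 (ENSMUSG00000009185.2, chr11:82115185-82116799, plus strand), which in the mouse is a ligand of Ccr8, had 17.3 and 34.9 FPKM in Lgr5-Cdx2-Apc, 1.33, 2.43, 1.69 and 0.857 in Lgr5-Apc, 1.13, 1.39 and 3.75 in Cdx2-Apc and 2.21, 2.47 and 2.49 in control. Lgr5-Apc replicate 2, high for Ccl27a and Cxcl14, was within the control range here. Ccl8 rose by 2.92 ± 0.39 (SE) against control (adjusted p = 0.0022). Without Lgr5-Cdx2-Apc replicate 2 the call was lost (2.43, adjusted p = 0.0563), and without replicate 1 it held (3.41, adjusted p = 0.0166). Ccr8, which reads both Ccl8 and Ccl1, had 0.117 and 0.799 FPKM in Lgr5-Cdx2-Apc, 0.128, 0.338, 0.0772 and 0 in Lgr5-Apc, 0 in all Cdx2-Apc libraries and 0.127, 0.0576 and 0.0992 in control. It was under the minimum for testing.

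Ccl2 and Ccl7 are ligands of Ccr2, the receptor of inflammatory monocytes. Ccl2 (ENSMUSG00000035385.5, chr11:82035571-82037453, plus strand) had 1.08 and 2.24 FPKM in Lgr5-Cdx2-Apc, 0.288, 0.271, 0.577 and 0.204 in Lgr5-Apc, 0.161, 0.36 and 1.27 in Cdx2-Apc and 0, 0.341 and 0.123 in control. Cdx2-Apc replicate 3 overlapped the Lgr5-Cdx2-Apc range. Ccl2 rose by 1.18 ± 0.31 (SE) against control (adjusted p = 0.0280), a call lost without Lgr5-Cdx2-Apc replicate 1 (1.5, adjusted p = 0.0645) or replicate 2 (0.86, adjusted p = 0.260), or without control replicate 1 (1.08, adjusted p = 0.0543), 2 (1.29, adjusted p = 0.0530) or 3 (1.16, adjusted p = 0.0776).

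Ccl7 (ENSMUSG00000035373.2, chr11:82045712-82047525, plus strand) had 1.21 and 5.00 FPKM in Lgr5-Cdx2-Apc, 0.222, 0.387, 0.868 and 0 in Lgr5-Apc, 0.789, 0.189 and 0.132 in Cdx2-Apc and 0.188, 0.635 and 0.246 in control. Both Lgr5-Cdx2-Apc libraries were the highest. Ccl7 rose by 1.44 ± 0.41 (SE) against control (adjusted p = 0.0378). The call was lost without Cdx2-Apc replicate 2 (1.44, adjusted p = 0.0538) or 3 (1.44, adjusted p = 0.0536) and without control replicate 1 (1.35, adjusted p = 0.0697), 2 (1.58, adjusted p = 0.0681) or 3 (1.38, adjusted p = 0.101). Their receptor Ccr2 had 1.92 and 5.81 FPKM in Lgr5-Cdx2-Apc, 1.18, 0.452, 1.24 and 0.234 in Lgr5-Apc, 1.23, 0.638 and 1.5 in Cdx2-Apc and 0.71, 2.33 and 0.907 in control, and did not pass (1.01, adjusted p = 0.118). Ccr1, another receptor of Ccl7, had 0.379 and 0.553 FPKM in Lgr5-Cdx2-Apc and 0.173 to 1.49 in control and was not tested.

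Ccl2, Ccl7, Ccl11, Ccl12, Ccl8 and Ccl1 lie in this order in 1 cluster on chromosome 11, between 82035571 and 82305690. Of these 6, 5 were tested and 4 rose in Lgr5-Cdx2-Apc against control, where 10.5% of all genes did, and Ccl7 and Ccl1 had to be higher there to be tested at all. Ccl2 would not have reached the minimum without that group. Ccl11, the eotaxin read by Ccr3, had 1.03 and 1.46 FPKM in Lgr5-Cdx2-Apc and 1.70, 4.08 and 4.59 in control (-0.93, adjusted p = 0.173). Ccl12 was not tested. The 5 ligands of a second cluster on the same chromosome, between 83525778 and 83664683, are Ccl5, Ccl9, Ccl6, Ccl3 and Ccl4, and the 3 tested, Ccl5 (-0.26, adjusted p = 0.678), Ccl9 (0.46, adjusted p = 0.611) and Ccl6, did not pass.

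Ccl6, a ligand of Ccr1 in the mouse, was the member with the highest mean over all libraries. It had 20.9 and 9.64 FPKM in Lgr5-Cdx2-Apc, 23.4, 10.5, 41.6 and 298 in Lgr5-Apc, 74.7, 104 and 81.9 in Cdx2-Apc and 27.2, 107 and 80.1 in control. Lgr5-Cdx2-Apc replicate 2 and Lgr5-Apc replicate 2 were lowest and Lgr5-Apc replicate 4 far above the rest. The difference of Lgr5-Cdx2-Apc from control was -2.04 ± 1.10 (SE), adjusted p = 0.202, and without Lgr5-Apc replicate 4 it passed at the same size (adjusted p = 0.0442). Ccl9 and Ccl5 averaged 2.40 and 1.20 FPKM over all libraries and did not pass.

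Xcl1 (ENSMUSG00000026573.7, chr1:164931644-164935527, minus strand), made by activated T and natural killer cells and read by Xcr1 on cross-presenting dendritic cells, had 7.48 and 7.69 FPKM in Lgr5-Cdx2-Apc, 0, 0.275, 0.367 and 1.17 in Lgr5-Apc, 0, 0.347 and 0 in Cdx2-Apc and 0.398, 0.476 and 0.246 in control. The Lgr5-Cdx2-Apc libraries were nearly equal and far above the rest. Outside that group only Lgr5-Apc replicate 4 reached 1 FPKM, so Xcl1 would not have been tested without it. Xcl1 rose by 2.65 ± 0.30 (SE) against control (adjusted p = 0.0010), and it was the 1 member tested without either library of that group whose call held each time (2.67, adjusted p = 0.0175 without replicate 1, and 2.63, adjusted p = 0.0417 without replicate 2). Xcr1 had 0.122 and 0.176 FPKM in Lgr5-Cdx2-Apc and at most 0.195 in the other libraries, and was not tested.

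Ccr4 (ENSMUSG00000047898.7, chr9:114490316-114504916, minus strand), the receptor of Ccl17 and Ccl22 carried by skin-homing T cells, had 4.82 and 5.33 FPKM in Lgr5-Cdx2-Apc, 0.0371, 0.864, 0.0955 and 0.0505 in Lgr5-Apc, 0, 0 and 0.0328 in Cdx2-Apc and 0, 0.0675 and 0.0305 in control. After the 2 Lgr5-Cdx2-Apc libraries, Lgr5-Apc replicate 2 was next and the other 9 were at or near 0. Ccr4 rose by 2.56 ± 0.25 (SE) against control (adjusted p = 0.000485). Without either Lgr5-Cdx2-Apc library, Ccr4, Cxcr6, Ccl1, Ccl7 and Cxcl2 no longer reached the minimum, so those settings gave no value for them. The calls of Ccr4, Cxcr6, Ccl1 and Cxcl2 held when any other library was left out. These members entered the test only through the Lgr5-Cdx2-Apc libraries, which those fits kept, so this is no support for their calls.

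T cell markers, when summed, were also highest in both Lgr5-Cdx2-Apc libraries. Of all tested genes 13.7% were highest in both, so nothing is read from this match. Their summed level was 77.2 to 92.1 FPKM in Lgr5-Cdx2-Apc, 9.44 to 20.7 in Lgr5-Apc, 7.39 to 11.8 in Cdx2-Apc and 10.9 to 16.1 in control, with Cd8b1 at 0 throughout Lgr5-Apc and Cd8b1, Trac and Trbc1 at 0 throughout Cdx2-Apc. Of 10 tested, 8 rose in Lgr5-Cdx2-Apc against control, among them Cd3e, a subunit of the T cell receptor complex, by 3.17 and Cd3g by 2.95. Markers of skin gamma-delta T cells summed to 49.2 to 52.5 FPKM in Lgr5-Cdx2-Apc, 2.76 to 4.47 in Lgr5-Apc, 2.31 to 3.19 in Cdx2-Apc and 2.53 to 5.13 in control. This list includes Xcl1 itself. Of its 6 tested, 5 rose, among them Trdv4, a delta chain segment, by 4.38 and Trdc, the delta constant chain, by 2.28, and 1 fell. Of all genes tested, 10.5% rose. Markers this low outside Lgr5-Cdx2-Apc may have reached the minimum for testing through its libraries. Nothing is therefore read from the T cell and gamma-delta counts. Of 9 Langerhans and dendritic cell markers tested, 4 rose, led by Cd207 (langerin) by 3.90, and 1 fell, Epcam, which columnar epithelium also expresses. Their score did not overlap, at 3.92 to 3.93 in Lgr5-Cdx2-Apc, 1.83 to 2.87 in Lgr5-Apc, 2.62 to 2.78 in Cdx2-Apc and 2.17 to 3.10 in control. Their summed level, which includes Epcam, was 769 to 874 FPKM in Lgr5-Cdx2-Apc, 276 to 734 in Lgr5-Apc, 684 to 818 in Cdx2-Apc and 472 to 867 in control. Of 10 macrophage markers tested with limma, 0 passed and 2 had an unadjusted p under 0.05, and their summed level was 96.6 to 149 FPKM in Lgr5-Cdx2-Apc, 28.8 to 75.8 in Lgr5-Apc, 87.6 to 116 in Cdx2-Apc and 35.9 to 138 in control. The part of these cells in the receptor and ligand values was not tested.

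Cxcl10 (ENSMUSG00000034855.13, chr5:92346638-92348889, minus strand), an interferon-induced ligand of Cxcr3, had 4.51 and 3.28 FPKM in Lgr5-Cdx2-Apc, 0.0556, 1.66, 0.46 and 0.111 in Lgr5-Apc, 2.34, 1.16 and 1.06 in Cdx2-Apc and 0.123, 1.38 and 0.883 in control. Both Lgr5-Cdx2-Apc libraries were above the rest, with Cdx2-Apc replicate 1 next. Cxcl10 rose by 1.5 ± 0.44 (SE) against control (adjusted p = 0.0389). This was the least stable call: it was lost in 8 of the 12 fits that left out 1 library, without either Lgr5-Cdx2-Apc library (1.32, adjusted p = 0.178, and 1.68, adjusted p = 0.170), without control replicate 1 (1.20, adjusted p = 0.0802), 2 (1.74, adjusted p = 0.0550) or 3 (1.57, adjusted p = 0.0856), and without Lgr5-Apc replicate 3 (adjusted p = 0.0527), Cdx2-Apc replicate 2 (adjusted p = 0.0548) or Cdx2-Apc replicate 3 (adjusted p = 0.0550) at 1.5. Cxcl10 lies inside Art3 on the other strand, which had 8.40 and 10.5 FPKM in Lgr5-Cdx2-Apc and did not pass (-0.47, adjusted p = 0.686). Cxcr3 had 0.266 and 0.185 FPKM in Lgr5-Cdx2-Apc and 0.209, 0.153 and 0.167 in control, and was not tested. Nor were Cxcl9 and Cxcl11, the other interferon-induced ligands: Cxcl9 had 0.676 and 1.21 FPKM in Lgr5-Cdx2-Apc, at most 0.413 elsewhere, and Cxcl11 0.271 and 0.233 in Lgr5-Cdx2-Apc and at most 0.794 elsewhere.

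Cxcl2 (ENSMUSG00000058427.10, chr5:90903871-90905938, plus strand), a neutrophil attractant read by Cxcr2, had 1.82 and 1.37 FPKM in Lgr5-Cdx2-Apc, 0, 0, 0.179 and 0 in Lgr5-Apc, 0, 0 and 0.301 in Cdx2-Apc and 0, 0 and 0.0921 in control. Both Lgr5-Cdx2-Apc libraries lay above the other 10, of which 7 were listed at 0. Cxcl2 rose by 1.33 ± 0.19 (SE) against control (adjusted p = 0.0030). Its cluster on chromosome 5, between 90759360 and 90905938, also holds Cxcl5, Cxcl3, Cxcl15 and Cxcl1. Cxcl5 had 4.05 and 2.63 FPKM in Lgr5-Cdx2-Apc and 10.1, 1.13 and 1.78 in control (0.08, adjusted p = 0.951), and the other 3 were not tested. The receptor Cxcr2 had 0.417 and 2.48 FPKM in Lgr5-Cdx2-Apc, 0.0482, 1.95, 1.39 and 0 in Lgr5-Apc, 0, 0.058 and 0.103 in Cdx2-Apc and 0.0349, 0 and 0.0242 in control. It was high in Lgr5-Apc replicates 2 and 3 too and did not pass (1.12, adjusted p = 0.129). Of 9 neutrophil markers found, Ngp was at 0 in both Lgr5-Cdx2-Apc libraries, and of the 4 tested 1 passed, Ly6g, which fell by 5.06, while 3 had an unadjusted p under 0.05. S100a8 and S100a9, which neutrophils share with inflamed keratinocytes, differed by 4.26 (adjusted p = 0.0545) and 3.53 (adjusted p = 0.0730), and the median of the 4 was 1.5. The summed level of the 9 was 43.4 to 125 FPKM in Lgr5-Cdx2-Apc, 1.31 to 189 in Lgr5-Apc, 95.2 to 154 in Cdx2-Apc and 163 to 226 in control, and the part of neutrophils in the Cxcl2 and Cxcr2 values was not tested.

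Cxcl2 and Cxcl10 were also 2 of the 5 members whose promoter holds the letters GGANTTTCC, a core of the site bound by NF-kappa-B, the factor that carries cytokine signals to inflammatory chemokine genes. RefSeq promoters on GRCm38.p6 were matched for 40 members, 47 promoters in all. In the 250 bases before the start, on either strand, 10.6% of the members' promoters held the letters, as did 1.07% of all 32851 promoters. The other matches were in Cxcl1, Cxcl3 and Ccr3. A match is a description of the letters and no evidence of binding. The promoters of Cxcl2 and Cxcl10, which rose, and of Cxcl1 and Cxcl3, untested neighbours of Cxcl2, are shown 5′ to 3′ on the gene's strand with the match in capitals. The match starts 96, 158, 70 and 72 bases before the RefSeq start in Cxcl2, Cxcl10, Cxcl1 and Cxcl3, in this order.
Cxcl2 (chr5:90903779-90903898, plus strand): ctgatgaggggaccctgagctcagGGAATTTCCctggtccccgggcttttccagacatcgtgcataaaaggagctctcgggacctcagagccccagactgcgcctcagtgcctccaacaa
Cxcl10 (chr5:92348890-92349069, minus strand): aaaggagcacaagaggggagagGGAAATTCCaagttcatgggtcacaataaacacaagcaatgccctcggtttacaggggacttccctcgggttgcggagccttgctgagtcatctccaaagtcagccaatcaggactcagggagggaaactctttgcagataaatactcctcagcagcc
Cxcl1 (chr5:90891125-90891244, plus strand): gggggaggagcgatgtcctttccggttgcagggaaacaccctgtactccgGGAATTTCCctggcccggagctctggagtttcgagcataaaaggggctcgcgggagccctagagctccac
Cxcl3 (chr5:90785981-90786100, plus strand): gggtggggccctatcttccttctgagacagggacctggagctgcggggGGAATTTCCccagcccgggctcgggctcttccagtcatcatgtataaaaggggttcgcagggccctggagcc
The same 9 letters GGAATTTCC stand in Cxcl1, Cxcl2 and Cxcl3, and Cxcl10 holds the reverse complement of a match. Cxcl1 had 0.293 and 0.633 FPKM in Lgr5-Cdx2-Apc and 0.858, 0.670 and 0.493 in control, overlapping at low levels, while Cxcl3 had 0.9 and 0.658 in Lgr5-Cdx2-Apc and 0.469, 0.0731 and 0 in control.

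Genes that act beside the members were counted from lists. Of 21 listed cytokines that induce chemokines 4 were tested, and 3 of these rose in Lgr5-Cdx2-Apc against control: Tnf by 1.41 ± 0.19, Il1b by 0.68 ± 0.17 and Il1a by 2.27 ± 0.60 (SE). Tnf had 2.34 and 2.06 FPKM in Lgr5-Cdx2-Apc and 0.0727 to 0.351 in control. A cytokine this low in control may have reached the minimum for testing through the Lgr5-Cdx2-Apc libraries, so nothing is read from the count of cytokines. Of 14 genes of the NF-kappa-B pathway and its feedback, 7 rose and 0 fell. Among the 7, the inhibitor Nfkbie (1.03) and the subunit Nfkb1 (0.87) had the smallest p. The adhesion molecule Icam1 (1.92) and the subunit Rel (1.66) had larger differences. Tnip1 (-0.87), Bcl3 (-0.73), Tnfaip3 (-0.55), Relb (-0.36) and Birc3 (-0.19) had differences below 0 and did not pass. Against Cdx2-Apc, 7 of the 14 rose and 2 fell, where 12.1% and 11.7% of all genes did. Of 25 genes of chemokine receptor signalling and adhesion, 9 rose and 1 fell against control. The leukocyte exchange factors Dock2 and Prex1 rose by 1.71 and 1.66, the integrin chain Itgal by 0.96, and Rgs1, which damps receptor signalling, fell by 1.42. Against control all genes tested had a median of 0.07, and 10.5% of them rose.

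Among 14 atypical receptors and chemokine-like genes tested, 3 rose and 2 fell, where 10.5% and 8.55% of all genes did. Their median was 0.086 beside 0.07 for all genes, so nothing is read from this count. Ackr4, a scavenger that removes Ccl19, Ccl21 and Ccl25, had 24.1 and 17.6 FPKM in Lgr5-Cdx2-Apc, 0.572, 7.38, 0.586 and 2.06 in Lgr5-Apc, 5.80, 3.01 and 3.03 in Cdx2-Apc and 0.857, 1.87 and 2.24 in control. Lgr5-Apc replicate 2 was again the nearest to the Lgr5-Cdx2-Apc libraries. Ackr4 rose by 3.06 ± 0.63 (SE), adjusted p = 0.0133. Ackr2, which scavenges inflammatory CC ligands, rose by 1.32 ± 0.33 (adjusted p = 0.0238). Rarres2, which encodes chemerin, fell by 1.95 ± 0.44 (adjusted p = 0.0173) and its receptor Cmklr1 rose by 1.23 ± 0.39 (adjusted p = 0.0484).

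**Figure D4:**
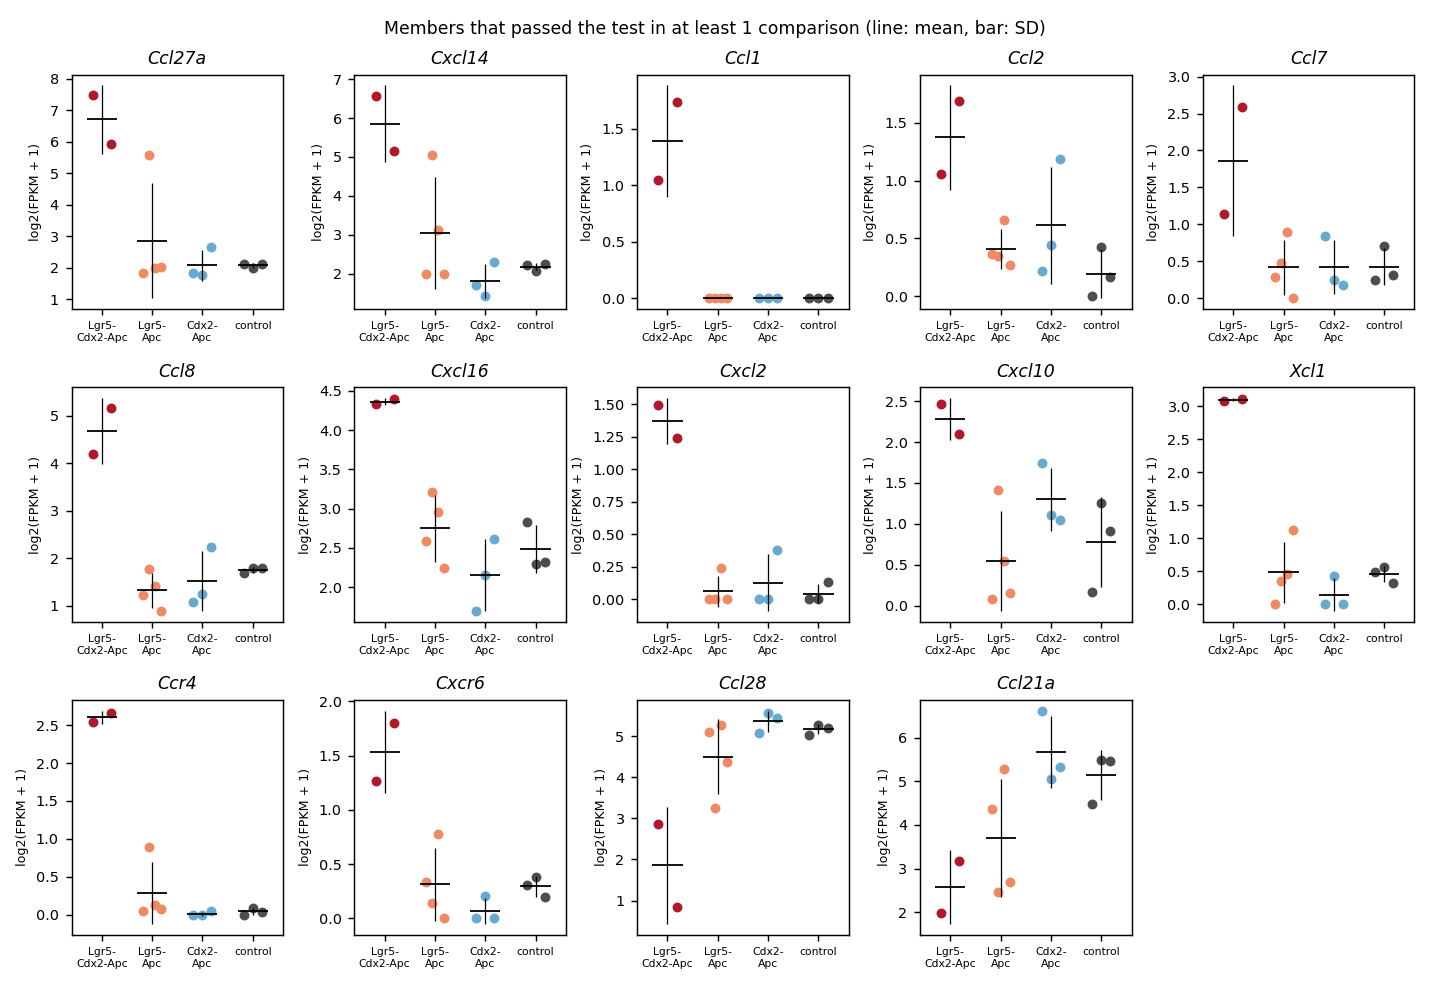
Levels of the 14 members that passed the test in at least 1 comparison, as log2(FPKM + 1), each on its own axis. Points are libraries, horizontal lines group means and vertical bars SD (n = 2, 4, 3 and 3). Ccl28 and Ccl21a are lower in Lgr5-Cdx2-Apc and the other 12 are higher.

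Ccl21a (ENSMUSG00000094686.1, chr4:42772860-42773993, minus strand), made by lymphatic endothelium and lymphoid stroma and read by Ccr7, had 2.95 and 8.04 FPKM in Lgr5-Cdx2-Apc, 19.5, 4.50, 37.7 and 5.45 in Lgr5-Apc, 96.8, 32.4 and 39.3 in Cdx2-Apc and 21.2, 43.5 and 43.2 in control. The Lgr5-Cdx2-Apc range overlapped Lgr5-Apc and lay below Cdx2-Apc and control. Ccl21a fell by 3.09 ± 0.82 (SE) in Lgr5-Cdx2-Apc against Cdx2-Apc (adjusted p = 0.025) and did not pass against control (-2.56 ± 0.82, adjusted p = 0.0525). The call against Cdx2-Apc was lost without Lgr5-Cdx2-Apc replicate 1 (-2.49, adjusted p = 0.144) or 2 (-3.69, adjusted p = 0.107), and without Cdx2-Apc replicate 1 (-2.62, adjusted p = 0.0695), 2 (-3.39, adjusted p = 0.0504) or 3 (-3.26, adjusted p = 0.0515). Ccl21a has near-identical copies, so its level is uncertain. Of 11 endothelial markers 2 fell against Cdx2-Apc, where 11.7% of all genes fell, so nothing is read from this count. Their summed level was 18.04 to 23.5 FPKM in Lgr5-Cdx2-Apc, 11.2 to 36.1 in Lgr5-Apc, 31.7 to 66.8 in Cdx2-Apc and 19.2 to 51.2 in control. The Lgr5-Cdx2-Apc range lay below Cdx2-Apc and overlapped Lgr5-Apc and control. Against control 0 passed with limma and 3 had an unadjusted p under 0.05, the lymphatic markers Lyve1 (-2.02, adjusted p = 0.0746), Prox1 (-0.98, adjusted p = 0.0923) and Flt4 (-1.35, adjusted p = 0.11). The part of endothelium in the Ccl21a values was not tested. Ccr7 had 0.105 and 0.428 FPKM in Lgr5-Cdx2-Apc, 0.103, 0.467 and 0.0414 in Cdx2-Apc and 0.0549, 0.482 and 0.344 in control, and was not tested. Ccl19, its other ligand, was at 0 in 11 libraries.

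The other mucosal ligands and Cx3cl1 did not pass. Ccl25 and Ccl20, read by Ccr9 and Ccr6 and known for homing to the gut, had 1.22 and 1.5, and 1.32 and 1.00 FPKM in Lgr5-Cdx2-Apc. In control Ccl25 had 1.25, 1.74 and 2.12 and Ccl20 0.204, 3.51 and 1.62 FPKM. Cx3cl1, a membrane-bound ligand of epithelium and endothelium, had 10.3 and 4.50 FPKM in Lgr5-Cdx2-Apc, 30.7, 7.81, 29.5 and 20.7 in Lgr5-Apc, 13.4, 18.3 and 22.5 in Cdx2-Apc and 21.2, 17.9 and 24.7 in control. As for Ccl28, the low libraries were both Lgr5-Cdx2-Apc libraries and Lgr5-Apc replicate 2. Its difference from control was -1.49 ± 0.51 (SE), adjusted p = 0.0651, and it passed without Lgr5-Apc replicate 2 (adjusted p = 0.0098). Its receptor Cx3cr1, of monocytes and resident macrophages, had 1.12 and 1.37 FPKM in Lgr5-Cdx2-Apc and 0.312 to 2.24 in control. Cxcr4 had 2.21 and 2.13 FPKM in Lgr5-Cdx2-Apc and 0.349 to 2.58 in control (0.43, adjusted p = 0.431). Of the 18 receptors, 6 were tested and 2 rose against control, Ccr4 and Cxcr6, where 10.5% of all genes did. Both were tested only through the Lgr5-Cdx2-Apc libraries, so nothing is read from this count. Untested members also included the receptors Ccr6, Ccr9, Cxcr1 and Cxcr5 and the ligands Ccl3, Ccl4, Ccl12, Ccl24 and Cxcl15. Ccr9, which reads Ccl25, had 0.632 and 1.46 FPKM in Lgr5-Cdx2-Apc and at most 0.966 elsewhere.

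Against the single-driver groups the same 2 Lgr5-Cdx2-Apc libraries were compared, so these results are not separate evidence. Against Lgr5-Apc, 11 members rose and 1 fell, beside 5.22% and 3.77% of all genes, and the members' median was 0.69 beside 0.03. The 11 include the 5 members tested only through the Lgr5-Cdx2-Apc libraries, which also raise the median, and Xcl1, which would not have been tested without them. The count and the median are therefore no support for a change of the family. These were the members called against control without Ccl2, which missed at 0.97 (adjusted p = 0.0642). Ccl8 rose by 3.35 ± 0.37 (adjusted p = 0.0010), Xcl1 by 2.62 ± 0.28 (adjusted p = 0.00082), Ccr4 by 2.31 ± 0.24 (adjusted p = 0.000639) and Cxcl16 by 1.61 ± 0.31 (adjusted p = 0.0155). Ccl27a rose by 3.86 ± 0.93 (adjusted p = 0.0326) and Cxcl14 by 2.81 ± 0.75 (adjusted p = 0.0455) although Lgr5-Apc replicate 2 was high. The Ccl27a call was lost in 11 of 21 alternatives, among them leaving out Lgr5-Cdx2-Apc replicate 1 (3.09, adjusted p = 0.185) or 2 (4.63, adjusted p = 0.191), Lgr5-Apc replicate 1, 3 or 4, Cdx2-Apc replicate 2 or 3, or control replicate 2 or 3 (3.51 to 3.86, adjusted p 0.0507 to 0.0812). The Cxcl14 call was lost in 16 of 21, among them leaving out any 1 library other than Lgr5-Apc replicate 2 (2.11 to 3.51, adjusted p 0.0610 to 0.237). Ccl28 fell by 2.65 ± 0.59 (adjusted p = 0.0264), a call lost without Lgr5-Cdx2-Apc replicate 2 (-1.64, adjusted p = 0.333), Lgr5-Apc replicate 1 (-2.45, adjusted p = 0.0611) or Lgr5-Apc replicate 3 (-2.39, adjusted p = 0.0652). That of Cxcl16 was lost without Lgr5-Cdx2-Apc replicate 1 (1.65, adjusted p = 0.0904) or 2 (1.58, adjusted p = 0.212). The count was 3 without Lgr5-Cdx2-Apc replicate 1, 2 without replicate 2, and 7 without Lgr5-Apc replicate 1 or replicate 3. With the 2 compared groups fitted alone it was 1.

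Against Cdx2-Apc, 10 members rose and 2 fell, beside 12.1% and 11.7% of all genes, with a median of 0.76 beside 0.04. The same 5 members that had to be higher are among the 10, as is Xcl1, and the same limit holds. Ccl2 (0.76, adjusted p = 0.0943) and Cxcl10 (0.98, adjusted p = 0.123) missed, and Ccl28 fell by 3.50 ± 0.62 (adjusted p = 0.0067) with Ccl21a. The count was 4 without Lgr5-Cdx2-Apc replicate 1 and 2 without replicate 2.

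With 1 driver alone no member passed. In Lgr5-Apc against control 0 of the 29 members were called by limma, where 0.0115% of all genes were, and 2 had an unadjusted p under 0.05. In Cdx2-Apc against control 0 were called, where 0.0403% of all genes were, and 0 had an unadjusted p under 0.05. Between Lgr5-Apc and Cdx2-Apc 0 were called, where 0.0346% of all genes were, and 3 had an unadjusted p under 0.05. The members' medians were -0.01, 0.00 and -0.11, beside 0.03, 0.04 and 0.00 for all genes. A missed threshold with 3 or 4 libraries a group does not show that levels were alike.

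The departure from additivity asks whether the difference between Lgr5-Cdx2-Apc and Lgr5-Apc exceeds that between Cdx2-Apc and control. Of the 29 members 5 were called, all higher, where 1.58% of all genes were called in either direction, and the median was 0.84 beside 0.02. Ccr4, Ccl1 and Cxcl2, which make up 3 of the 5, entered the test only through the Lgr5-Cdx2-Apc libraries, and Xcl1 would not have entered it without them. Nothing is therefore read from the count or the median. Ccl8 exceeded the additive value by 3.58 ± 0.51 (adjusted p = 0.0103), Xcl1 by 2.93 ± 0.39 (adjusted p = 0.0065), Ccr4 by 2.34 ± 0.33 (adjusted p = 0.0090), Ccl1 by a fitted 1.39 ± 0.27 (adjusted p = 0.0343) and Cxcl2 by 1.23 ± 0.25 (adjusted p = 0.0415). Ccl27a (3.85 ± 1.27, adjusted p = 0.145), Cxcl14 (3.18 ± 1.03, adjusted p = 0.14) and Ccl28 (-2.84 ± 0.81, adjusted p = 0.116) did not pass, and each did without Lgr5-Apc replicate 2 (4.76, 3.85 and -3.26), when the count was 11. Without Lgr5-Cdx2-Apc replicate 1 or replicate 2 the count was 0, and it was 3 without any 1 library of Cdx2-Apc or control or without Lgr5-Apc replicate 1 or 4. Ccl8 (4.07, adjusted p = 0.0657, and 3.09, adjusted p = 0.142) and Xcl1 (2.95, adjusted p = 0.1, and 2.91, adjusted p = 0.111) lost the call without Lgr5-Cdx2-Apc replicate 1 and without replicate 2, in this order, while Ccr4, Ccl1 and Cxcl2 were then not tested.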

How the data were processed

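Gene expression of 12 mouse rectum libraries was deposited by the authors as 1 table of FPKM values. The submitters' processing notes name STAR, Cufflinks, Cuffdiff and the mm10 build. Versions, annotation and use of strand in counting are not given in the sources used here, and depth in reads is unknown. Of 27831 lines, 25 bore spreadsheet dates and stayed unnamed, and 44 other symbols occurred repeatedly and were represented by their line of highest mean, leaving 27785 genes. FPKM values are not counts, so log2(FPKM + 1) was fitted with limma 3.58.1 in R 4.3.3 (1 term per group, all 12 libraries, trended variance) over the 17360 genes that reached 1 FPKM in 2 or more libraries. P-values are two-sided and were adjusted by the Benjamini-Hochberg method over all genes of a comparison, and calls are those below 0.05. The 7 comparisons share libraries. The steps were tested on simulated data.

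Members called in any comparison are given by library, their ligand or receptor partners by value, and the rest by counts with the 3 highest of each role named. The values of 1 untested member are not reported here. The members and lists were chosen with earlier results of these data known. Positions are from GENCODE M21 (GRCm38, the same build), where all 54 members matched, and promoters from RefSeq. Alternatives were another pseudocount, other minimums, scalings, samples fitted, a replicate block and leaving out libraries. Python 3.11.15 with pandas 2.3.3, numpy 2.4.6 and matplotlib 3.10.9 was used for tables and figures.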

Additional observations from a re-analysis of the deposited data

Results flagged for a closer look

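Within the 4 Lgr5-Apc libraries, 28 members were checked by Dixon's ratio of the gap of 1 library to the group's whole range. For 3 of them a library stood far from the others. Chance flags about 1 in 20 separate groups, but the 28 checks share the same 4 libraries and are not independent. Replicate 2 stood apart for Ccl27a (0.946) and Ccr4 (0.907), and replicate 3 for Cxcl2 (1). The other 3 libraries were listed at 0 for Cxcl2, which by itself fixes the ratio at 1.

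For 5 members the difference between Lgr5-Cdx2-Apc and Lgr5-Apc exceeded that between Cdx2-Apc and control by the fitted interaction in limma. Of all genes, 1.58% were called in either direction. On the log2(FPKM + 1) scale the excess was 3.58 for Ccl8, 2.93 for Xcl1, 2.34 for Ccr4, 1.23 for Cxcl2 and 1.39 for Ccl1. Ccl1 was listed at 0 in the other 3 groups, so its size depends on the pseudocount. Ccr4, Ccl1 and Cxcl2 entered the test only through the Lgr5-Cdx2-Apc libraries, and Xcl1 would not have entered it without them. Nothing is therefore read from the count, which was 0 with a pseudocount of 0.1 FPKM.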

How the results depend on the processing

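Over 21 alternatives, 818 values of called members were recomputed: 667 kept direction and call, 151 kept direction and lost the call, and 0 reversed. These fits share most libraries, and Ccl1, Ccl7, Cxcl2, Ccr4 and Cxcr6 had to be higher in Lgr5-Cdx2-Apc to be tested. Alternatives in which a member fell under the minimum gave no value. The lack of reversals is therefore no separate support. In Lgr5-Cdx2-Apc against control the count of 13 was 6 with a minimum in at least 6 libraries and 1 to 16 on leaving out 1 library, the lowest without Lgr5-Cdx2-Apc replicate 2. Against Lgr5-Apc the count of 12 was 5 with that minimum, 1 with only the compared groups and 2 to 13 on leaving out 1 library. Against Cdx2-Apc the count of 12 was 6 with that minimum and 2 to 14 on leaving out 1 library. The departure from additivity, with 5 called, gave 0 with a pseudocount of 0.1 or the 6-library minimum, 3 with quantile normalization, 11 without both Lgr5-Apc replicates 2 and 3, and 0 to 11 on leaving out 1 library. Where 1 Lgr5-Cdx2-Apc library was left, it was assumed to vary like the other groups. The causes were not tested. The comparisons without the Lgr5-Cdx2-Apc group had 0 calls under each alternative.

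Whether the replicate numbers pair the samples is not known. Over 15 same-numbered pairs the median correlation of deviations was -0.02 (-0.30 to 0.42), with 5 over 0.1, which cannot settle it. With the replicate block the counts were 11 against control, 5 against Lgr5-Apc, 13 against Cdx2-Apc and 2 for additivity. Values under 1 FPKM are the least certain, and depth in reads is unknown.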
